A study of Homo sapiens with 8 samples.

Results

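Interferon-stimulated genes were followed as a set of 41 symbols through RNA sequencing of SET-2, a leukemic megakaryoblastic cell line that arose from essential thrombocythemia and is used as a model of the JAK2 V617F mutation in the series title. The members were taken from the deposited table by symbol. All 41 were among its 25435 symbols, and all 41 were among the 14898 genes that passed the filter on low counts. Every library came from this one line, which was transduced with a viral vector carrying a guide RNA. ZRSR2_knockout libraries came from cells with a guide against ZRSR2, a splicing factor that helps recognise the ends of U12-type introns, and non_targeting libraries from cells with a control guide. With 2 guides per genotype, each present in both of 2 experiments, there were 4 libraries per genotype. Experiment 1 holds replicates 1 (guide 1) and 2 (guide 2) of either genotype, and experiment 2 holds replicates 3 (guide 1) and 4 (guide 2). The protocol gives collection at day 20 after transduction for one biological replicate and day 25 for the other. It is an assumption that these are experiments 1 and 2, and day and experiment cannot be told apart here. No label describes treatment with interferon.

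Type I and type III interferons bind receptors on the cell surface and, through the kinases JAK1 and TYK2, activate transcription factors that include STAT2. Together with IRF9 they form a complex that binds the interferon-stimulated response element in gene promoters. Interferon gamma instead acts through JAK1 and JAK2, and the factors it activates bind a different element. The genes that are switched on block virus entry, degrade or sequester viral RNA, alter nucleotide pools or amplify the signal itself, and many are transcribed at a low level without added interferon.

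Totals ran from 31106042 to 71521173 expected counts per library, so that 1 count was worth 0.0143 to 0.0324 CPM (counts scaled to a common library total, with TMM factors). The lowest count of any member in any library was 76, for IFI44L. Knockout replicates 1 to 4 held 29.4, 22.9, 28.3 and 18.7 CPM of ZRSR2, the targeted gene, and the controls 37.9, 39.2, 39.7 and 41.1 CPM. On average the knockouts were thus at 62.9% of control, without overlap (two-sided exact permutation test over 70 splits, p = 0.0286). With splits kept within experiments the p was 0.0556, the smallest that arrangement can give. ITGA2B, the highest of a list of 12 megakaryocyte and erythroid genes, was at 2085 to 2708 CPM. In the same list PF4 and PPBP were low, with means of 1.58 and 0.596 CPM over all libraries. CD3E, MS4A1, MARCO and LILRA4, the lowest genes of 4 lists for other blood cells, were at or near 0. CD14, from the same list as MARCO, had 16 to 47 counts per library, with a mean of 0.651 CPM. Single markers of other lists were present, with CD79A at 10.3 to 51.1 CPM and TCF4 at 66.1 to 104 CPM. Several such markers differed by experiment, in either direction. EPCAM was at 3.59 to 6.41 CPM in experiment 1 and 11.8 to 21.1 in experiment 2, and PDGFRB at 0.551 to 0.898 and 2.79 to 3.63. KRT18 was at 10.7 to 14.9 and then 3.26 to 6.12 CPM, and COL3A1 at 2.29 to 3.14 and then 0.143 to 0.539. As sums, the B cell list of 3 genes summed to 10.3 to 11.5 CPM in experiment 1 and 32.5 to 51.2 in experiment 2, the plasmacytoid list of 3 to 66.1 to 72.3 and 92.7 to 104, and the fibroblast list of 4 to 4.85 to 5.11 and 6.37 to 7.62. The epithelial list of 4 overlapped, at 46.5 to 52.2 and 39.8 to 55.2. Their part in the differences between experiments was not tested.

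Promoter sequences show which members carry a response element close to a start site. The windows of RefSeq (GRCh38.p14) run from 250 bases before to 50 bases after a start, and 33 of the 41 members had at least 1 entry. The core of the response element, GAAA, then any 2 bases, then GAAA, was searched on both strands (TTTC, any 2 bases, TTTC on the other), with overlapping matches allowed. It was found for 23 of the 33 members, or 69.7%, and for 4.38% of 27305 genes. The letters TTCNNNGAA, the core of the element bound by STAT dimers, were found for 11 of the 33 members, or 33.3%, and for 9.38% of all genes. The stretches below are shown because members with the same core went in opposite directions between the experiments. Those of ISG15, IFIT1 and HERC5 belong to members that were higher in experiment 2, and the rest to members that were lower. Each is read 5′ to 3′ along the strand of its gene, with every match in capitals.
ISG15 (chr1:1013372-1013411, plus strand): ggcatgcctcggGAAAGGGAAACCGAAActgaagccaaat
IFIT1 (chr10:89392495-89392541, plus strand): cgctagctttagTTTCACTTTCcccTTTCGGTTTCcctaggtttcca
HERC5 (chr4:88456982-88457066, plus strand): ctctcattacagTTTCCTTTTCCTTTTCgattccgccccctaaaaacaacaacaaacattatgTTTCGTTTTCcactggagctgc
IFIT3 (chr10:89327829-89327896, plus strand): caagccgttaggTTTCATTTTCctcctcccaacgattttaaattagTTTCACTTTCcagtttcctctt
IFI44L (chr1:78620272-78620396, plus strand): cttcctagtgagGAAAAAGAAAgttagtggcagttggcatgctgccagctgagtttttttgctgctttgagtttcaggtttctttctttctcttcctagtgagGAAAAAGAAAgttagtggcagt
IFI27 (chr14:94110616-94110662, plus strand): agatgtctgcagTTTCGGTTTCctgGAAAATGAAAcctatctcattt
BST2 (chr19:17405733-17405772, minus strand): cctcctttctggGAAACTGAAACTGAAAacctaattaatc
ISG15, BST2 and HERC5 each held 2 overlapping matches, and in IFI27 a match on each strand lay side by side. The core was found for 5 of the 5 members with an entry that were higher in experiment 2, for 10 of the 16 that were lower and for 8 of the 12 that were not called. These counts describe letters only. No entry was matched for IFIT2, OAS2, OASL, MX2, USP18, IRF7, IFITM2 or TRIM22.

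Levels of different members were compared per length, as CPM per kilobase of the longest protein-coding transcript in GENCODE 29. Counts per gene do not show which transcript was expressed, so these levels and ranks depend on that choice. IFITM3, a membrane protein that restricts virus entry, was highest at 787 CPM per kilobase over all 8 libraries. IFI27, a small mitochondrial protein, followed at 223, IFITM2 at 175, IFITM1 at 168 and the tetherin gene BST2 at 138. At the other end IFIT1 was at 1.01, OAS2 and IFI44L at 1.1 each and MX1 at 1.25 CPM per kilobase. IFIT1 and MX1, members used as markers of interferon treatment, were thus among the 4 lowest of the 41. This does not hold for induced members as a class. IFI27 ranked 2, ISG15 ranked 7 at 46.9 CPM per kilobase and IFI6 ranked 11 at 34.4. IFIT3, at 26.6, was well above the rest of its family, with IFIT2 at 3.52 and IFIT5 at 2.88. MX2 was close to MX1, at 1.49. IFITM1, IFITM2 and IFITM3 share sequence: 42.3% of the 50-base stretches of IFITM1 occur in another gene, and their separate levels are uncertain. The same holds for USP18 (23.4% shared, almost all with USP41), and for IRF9, whose 50-base stretches all lie in the readthrough gene AL136295.5.

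**Figure D1:**
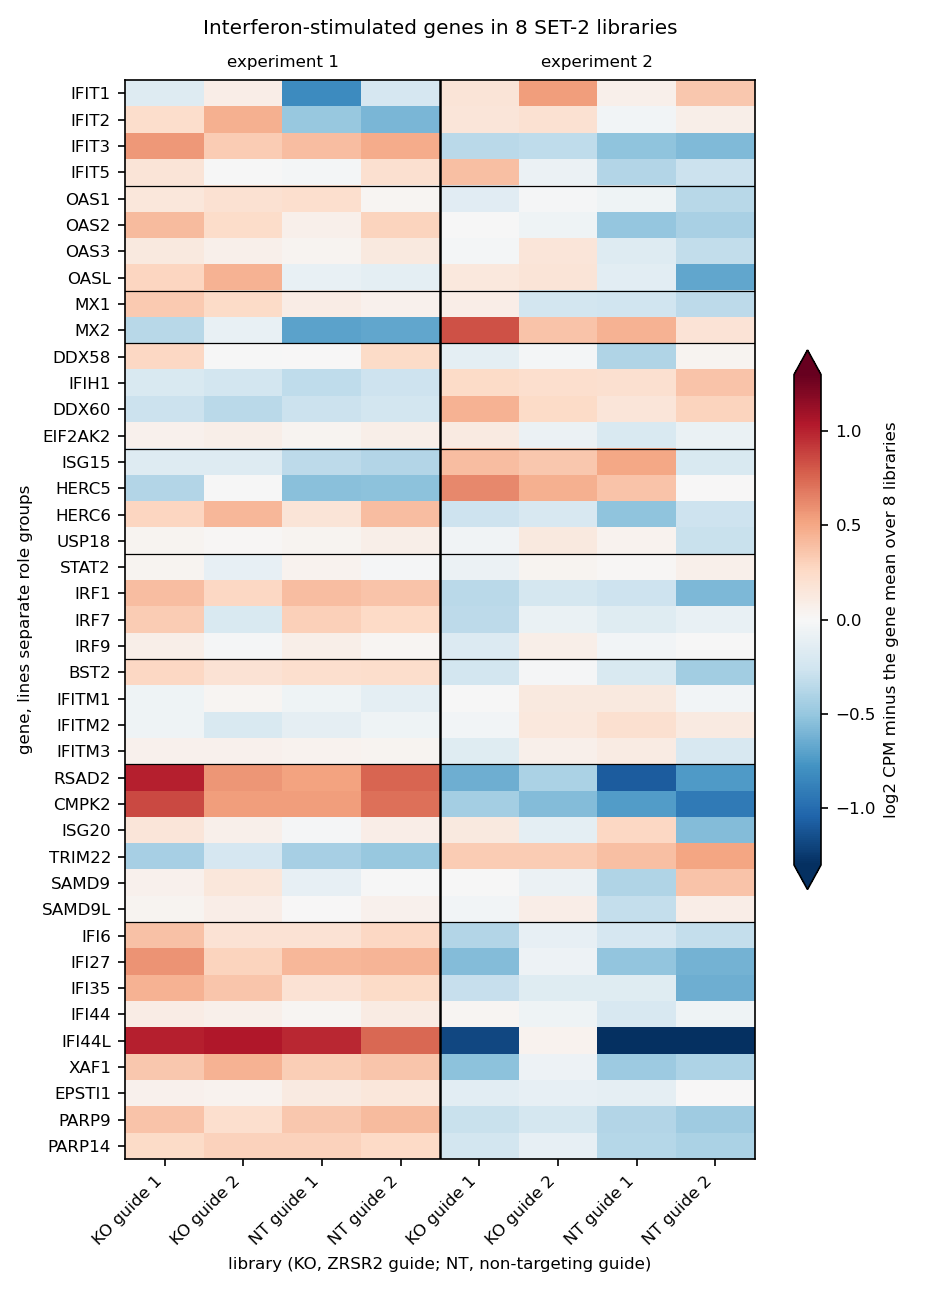
Levels of the 41 members in the 8 libraries, grouped by role; colour gives log2 CPM minus the member's mean over all libraries, with the scale ending at 1.3 on either side. IFI44L, RSAD2 and CMPK2 are lower in experiment 2 in both genotypes, while MX2, TRIM22 and HERC5 are higher. IFI44L in knockout replicate 4 (5.34 CPM) stays close to its mean over all libraries.

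Experiment 2 was compared with experiment 1 over both genotypes, since every guide was used in both. The experiments differed widely: edgeR's quasi-likelihood test called 58.2% of all tested genes at an adjusted p under 0.05 (Benjamini-Hochberg over all genes). Of the members 26 of 41, or 63.4%, were called, which is close to that background. By direction, 8 members were higher, or 19.5% against 29.6% of all genes, and 18 were lower, or 43.9% against 28.6%. The median log2 fold change of the members was −0.17, against 0.0035 over all genes, and 30 of 41 were negative. The p-values measure the spread between the 2 guides of a genotype within an experiment. Each experiment is 1 collection, so variation between repeated collections is not measured by them. No label says that guides within an experiment came from separate thaws or stocks. In bulk RNA, fewer cells expressing a gene and less RNA per cell cannot be told apart.

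The steepest fall was in IFI44L, a cytoplasmic protein of the interferon response whose role is not settled. Its level was 10.4, 10.7, 10.2 and 8.72 CPM in knockout replicates 1 and 2 and control replicates 1 and 2, and 2.28, 5.34, 2.07 and 2.09 CPM in the corresponding libraries of experiment 2. Experiment 2 lay below experiment 1 in every library, though knockout replicate 4 stood apart from the other 3. The log2 fold change was −1.83 ± 0.22 (SE; edgeR adjusted p = 4.84e-05). It was −2.19 in the controls and −1.47 in the knockouts. IFI44L, RSAD2 and CMPK2 were the members that fell at least 2-fold, a change that 5.44% of all genes showed in that direction.

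RSAD2 encodes viperin, which makes a chain-terminating nucleotide from CTP, and CMPK2 encodes a nucleotide kinase that feeds the same pool. RSAD2 was at 31.2, 23.0, 22.2 and 26.1 CPM in knockout and control replicates 1 and 2, and at 9.94, 11.6, 7.28 and 9.29 CPM in replicates 3 and 4. CMPK2 was at 70.9, 57.2, 57.0 and 64.1 CPM and then at 28.8, 26.6, 23.6 and 20.7 CPM. Neither gene overlapped between experiments, and both fell in each genotype, by 1.55 and 1.45 in the controls and 1.33 and 1.21 in the knockouts on the log2 scale. The log2 fold changes were −1.44 ± 0.13 (adjusted p = 8.86e-06) for RSAD2 and −1.33 ± 0.10 (2.29e-06) for CMPK2. The 2 genes lie head to head on chromosome 2 and their annotated exons overlap on opposite strands. Whether the counting used strand is not given in the sources used here, so part of their reads may not be separable.

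Among the other effectors TRIM22, a RING-type E3 ligase that restricts several viruses, went the other way. It was at 40.5, 47.0, 40.3 and 38.7 CPM in experiment 1 and at 68.7, 68.5, 71.7 and 77.9 CPM in experiment 2, in the order knockout then control. The experiments did not overlap, and TRIM22 rose by 0.79 ± 0.08 on the log2 scale (adjusted p = 1.48e-05). The exonuclease ISG20 and the growth and translation regulators SAMD9 and SAMD9L did not pass the test, with log2 fold changes of −0.11, −0.030 and −0.082. Of the 6 effectors, 1 was thus higher (16.7%, against 29.6% of all genes) and 2 were lower (33.3%, against 28.6%).

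The IFIT proteins bind viral RNA by its 5′ end and block its translation. IFIT3, which stabilises the complex of IFIT proteins, was at 93.5, 79.4, 83.6 and 88.2 CPM in experiment 1 and at 49.6, 50.2, 44.0 and 42.3 CPM in experiment 2. IFIT1, the cap-binding member, was at 4.02, 4.79, 2.56 and 3.87 CPM and then at 5.05, 6.56, 4.72 and 5.74 CPM. IFIT3 did not overlap between experiments and fell, while IFIT1 overlapped by 1 library and rose. The log2 fold changes were −0.89 ± 0.08 (adjusted p = 6.15e-06) for IFIT3 and 0.54 ± 0.17 (0.0171) for IFIT1. The call for IFIT1 was lost without knockout replicate 1, control replicate 1 or knockout replicate 4, where its log2 fold change was 0.49, 0.41 and 0.44. IFIT2 and IFIT5 were not called, at 0.19 and −0.17.

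Of the OAS family, enzymes that sense double-stranded RNA, OAS1 and OAS2 fell, by 0.29 and 0.50 on the log2 scale (adjusted p = 0.0475 and 0.00517). OAS2 was called under all 12 alternatives, but the call for OAS1 was kept under 2 of the 12 (adjusted p 0.0143 to 0.191). It was lost with DESeq2 (0.0602), under either other count filter, and without any 1 of the libraries other than control replicate 3. OAS3 and OASL were not called, at −0.17 and −0.24, so that all 4 values were negative. Of the MX proteins, GTPases that trap viral nucleocapsids, MX2 was at 3.31, 3.96, 2.62 and 2.65 CPM in experiment 1 and at 7.55, 5.48, 5.79 and 4.81 CPM in experiment 2. Every library of experiment 2 lay above every library of experiment 1, and MX2 rose by 0.92 ± 0.15 (adjusted p = 4.41e-04), the largest rise of any member. MX1 fell, at −0.37 ± 0.13 (0.0352), from 4.87 ± 0.46 to 3.77 ± 0.51 CPM (SD, n = 4), and its libraries overlapped between experiments. Its call was kept under 4 of the 12 alternatives (adjusted p 0.0215 to 0.114). It was lost with DESeq2 (0.0630), without a count filter, and without any 1 of the libraries other than knockout replicate 3 and control replicate 3.

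Of the 4 RNA sensors and kinases, 2 were higher (50%, against 29.6% of all genes) and none was lower (28.6% of all genes). A group of 4 is too small to set apart from these shares. IFIH1, which encodes MDA5 and detects long double-stranded RNA, was at 20.1, 19.4, 18.3 and 19.1 CPM and then at 27.3, 26.7, 26.6 and 29.7 CPM. DDX60, a helicase reported to assist such sensors, was at 22.6, 21.6, 22.7 and 23.4 CPM and then at 37.6, 32.8, 30.7 and 33.8 CPM. Neither overlapped between experiments, and spreads within each experiment were small. IFIH1 rose by 0.52 ± 0.08 (adjusted p = 3.50e-04) and DDX60 by 0.58 ± 0.09 (2.01e-04). DDX58, which encodes RIG-I, and EIF2AK2, which encodes the kinase PKR, were not called, at −0.26 and −0.12.

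ISG15 is a ubiquitin-like modifier that HERC5 attaches to new proteins and USP18 removes. ISG15 was at 32.1, 32.0, 28.4 and 27.7 CPM in experiment 1 and at 47.5, 45.7, 50.9 and 31.3 CPM in experiment 2. HERC5 was at 7.97, 10.3, 7.12 and 7.17 CPM and then at 16.0, 14.2, 13.4 and 10.4 CPM. HERC5 did not overlap, whereas control replicate 4 of ISG15 fell within the range of experiment 1. ISG15 rose by 0.55 ± 0.13 (adjusted p = 0.00385) and HERC5 by 0.73 ± 0.13 (5.64e-04). HERC6, the relative of HERC5 beside it on chromosome 4, fell, at −0.64 ± 0.11 (6.30e-04). USP18, also a brake on the type I receptor, was not called, at −0.072.

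Of the transcription factors, STAT2 and IRF9, partners in the complex that binds the response element, were not called, at 0.018 and −0.074. IRF1, a factor induced mainly by interferon gamma, was at 199, 181, 199 and 195 CPM in experiment 1 and at 118, 129, 126 and 101 CPM in experiment 2. The experiments were well apart, and IRF1 fell by 0.71 ± 0.08 (adjusted p = 4.48e-05). IRF7, the factor that amplifies interferon genes, fell by 0.35 ± 0.12 (0.0230), with 1 library of experiment 1 inside the range of experiment 2. Its call was kept under 7 of the 12 alternatives (adjusted p 0.00205 to 0.123). It was lost without any 1 of knockout replicates 1 and 3 and control replicates 1, 2 and 3, and was at −0.21 without knockout replicate 1. Of the membrane restriction factors, BST2 fell by 0.45 (8.11e-04) and IFITM2 rose by 0.21 (0.0252). IFITM1 and IFITM3 were not called, at 0.11 and −0.089. The call for IFITM2 was lost when any 1 of 4 libraries was left out (knockout replicates 2 and 4, control replicates 1 and 2), at 0.18, 0.17, 0.20 and 0.23.

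The remaining group of 9 induced genes had 8 called (88.9%, against 58.2% of all genes), all lower (28.6% of all genes). IFI27 was at 231, 188, 207 and 208 CPM in experiment 1 and at 104, 147, 108 and 101 CPM in experiment 2. XAF1, a pro-apoptotic protein, was at 54.6, 58.4, 53.3 and 54.9 CPM and then at 29.6, 40.7, 30.9 and 32.3 CPM. PARP9, an ADP-ribosyltransferase family member that works with DTX3L, was at 173, 156, 171 and 179 CPM and then at 109, 115, 103 and 97.1 CPM. All 3 genes were without overlap, and in each of the 3 knockout replicate 4 was the highest library of experiment 2. Their log2 fold changes were −0.87 ± 0.11 (adjusted p = 6.56e-05), −0.73 ± 0.10 (1.25e-04) and −0.68 ± 0.07 (1.65e-05). Exons of PARP9 and DTX3L overlap on opposite strands. IFI35, PARP14, IFI6 and EPSTI1 fell by 0.61, 0.56, 0.51 and 0.18, and IFI44 was not called, at −0.15. The call for EPSTI1 was kept under 5 of 12 alternatives (adjusted p 0.00622 to 0.147), and was lost without a count filter or without any 1 of the libraries other than control replicates 3 and 4.

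**Figure D2:**
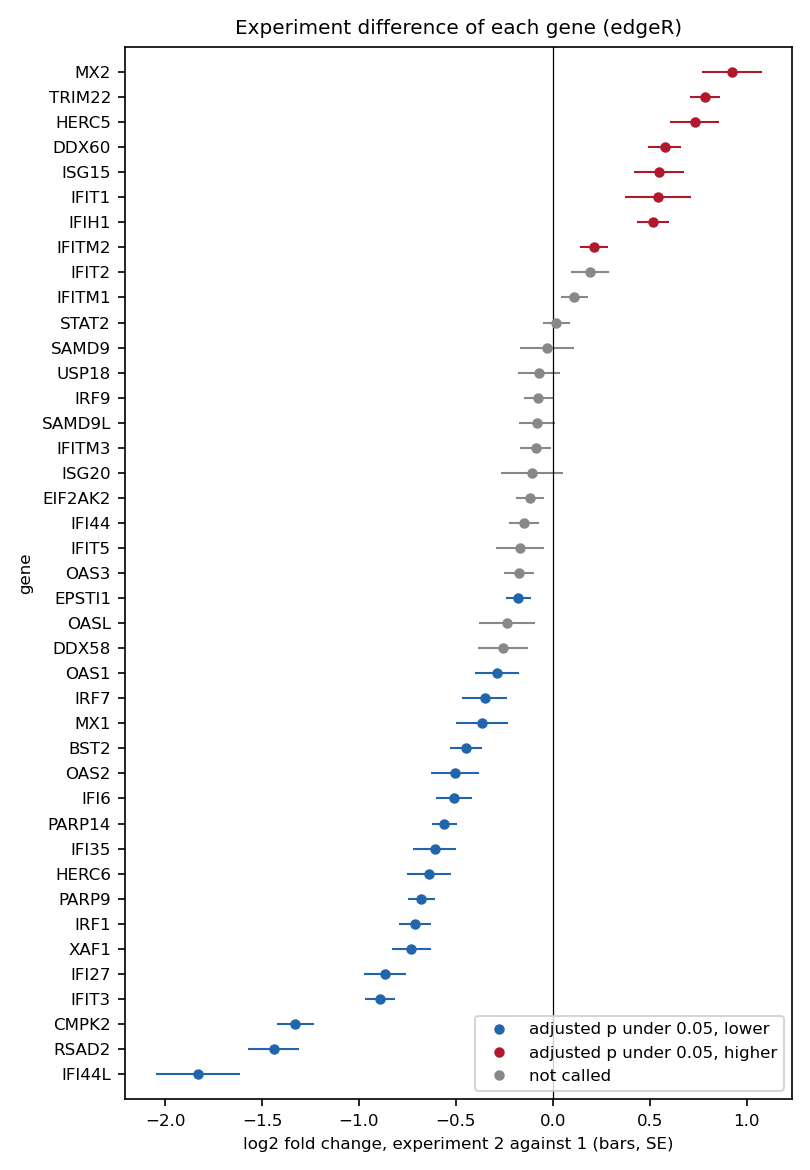
Log2 fold change of each member in experiment 2 against experiment 1, with its standard error. Called members run from −1.83 (IFI44L) to 0.92 (MX2), and the 15 members not called lie between −0.26 and 0.19.

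Groups of 4 libraries did not overlap between experiments for 22 members, 16 of them lower (39.0%, against 28.0% of all genes) and 6 higher (14.6%, against 28.0%). Tested within genotype, 23 members were called in the controls, against a background of 46.9% of all genes. Of these 8 were higher (23.9% of all genes) and 15 lower (23.0%). In the knockouts 19 were called, where 36.9% of all genes were. Of these 6 were higher (18.9% of all genes) and 13 lower (18.0%). These contrasts share no library. All 19 members called in the knockouts were called in the controls with the same sign, which is 82.6% of the 23 and 100% of the 19. Over all genes the shares were 72.6% and 92.2%. IFIT1, IFIT2, OAS2 and OAS3 were called in the controls only, but no difference between the genotypes passed the test of the difference itself.

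Several members sit near a relative or another member in the genome, and a ratio of the 2 within a library does not depend on its scaling. The 10 pairs were chosen after their values were seen, so the ratios are given as a description. Ratios of other gene pairs were not computed, so there is no background for them. On chromosome 1 IFI44L (78619922 to 78646145, GRCh38) ends shortly before IFI44 (78649796 to 78664078). Their log2 ratio was −2.16 to −1.83 in experiment 1 and −4.06 to −2.71 in experiment 2. IFI44 itself stayed at 36.9 to 39.1 and at 31.4 to 37.0 CPM. On chromosome 21 the log2 ratio of MX1 to its neighbour MX2 was 0.36 to 0.80 in experiment 1 and −0.74 to −0.51 in experiment 2, so that the order of the pair turned over. On chromosome 4 the ratio of HERC6 to HERC5 turned over likewise, from 0.31 to 0.81 down to −1.02 to −0.39. In the IFIT cluster on chromosome 10 the ratio of IFIT3 to IFIT1 went from 4.05 to 5.03 down to 2.88 to 3.3. The ratios of IFIT3 to IFIT2, OAS2 to OAS3 and IFITM3 to IFITM2 did not overlap either, with mean differences of −1.09, −0.32 and −0.31. By contrast, the ratios overlapped between experiments for RSAD2 to CMPK2, PARP9 to PARP14 and SAMD9 to SAMD9L, with mean differences of −0.11, −0.12 and 0.038.

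**Figure D3:**
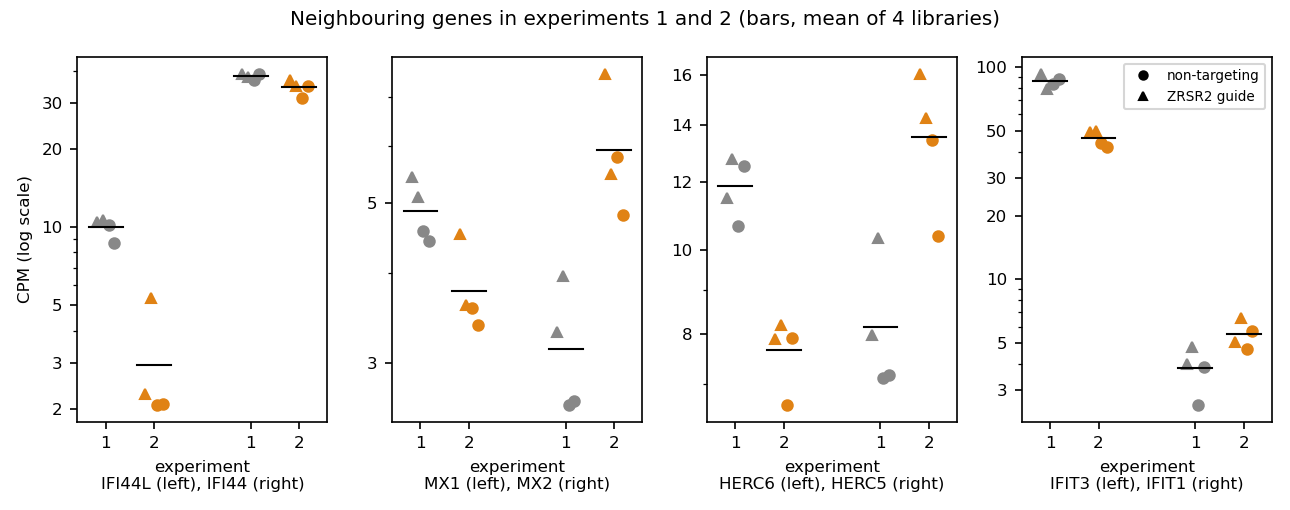
CPM on a log axis for 4 neighbouring pairs in experiments 1 and 2; points are libraries and bars the mean of 4. In each pair the left gene is lower in experiment 2, and MX2, HERC5 and IFIT1 are higher while IFI44 changes little.

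The other genes of the pathway came from a list of 73, of which 58 were tested. Of these 34, or 58.6%, were called between the experiments, close to the 58.2% of all genes. By direction 13 were higher, or 22.4% against 29.6% of all genes, and 21 lower, or 36.2% against 28.6%. No counts at all were found for 7 of 9 interferon genes, including IFNB1, IFNA2 and IFNG, and the other two, IFNL1 and IFNL3, never had more than 1 count. A count of 0 allows up to 3 counts, or 0.0428 to 0.0971 CPM across the libraries, which covers counting error alone because the reads carry no molecular identifiers. Of the 5 tested receptor chains 1 was higher and 1 lower (20.0% each). IFNGR2, a chain of the interferon gamma receptor, rose by 0.61 ± 0.09 (adjusted p = 1.52e-04). IFNAR1, a chain of the type I receptor, fell by 0.35 ± 0.09 (adjusted p = 0.00513), while IFNAR2 was not called, at −0.027 ± 0.08 (0.773).

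The groups below are small and are to be read against the 29.6% of all genes that were higher and the 28.6% that were lower. Of the 6 negative regulators 4 were higher (66.7%) and 1 was lower (16.7%). SOCS1 and CISH, feedback inhibitors of cytokine receptors, rose by 0.82 ± 0.16 (adjusted p = 0.00134) and 0.75 ± 0.10 (1.12e-04). Among 13 tested sensors and adaptors 4 were higher and 4 lower (30.8% each). TLR9, DHX58 (LGP2) and MAVS, the adaptor through which RIG-I and MDA5 signal, rose by 1.16, 0.75 and 0.74. Of 26 further induced genes 3 were higher (11.5%) and 14 lower (53.8%). The guanylate-binding proteins GBP5, GBP1, GBP4 and GBP2, GTPases that attack intracellular pathogens, fell by 1.62, 1.33, 0.80 and 0.77, and PNPT1, a mitochondrial exoribonuclease, by 0.83.

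ZRSR2 knockout was then compared with non-targeting, the main question of the series. No member and no gene was called by edgeR with genotype alone (0% of all genes). At an unadjusted p under 0.05 there were 89 genes (0.597%), among them IFIT2 and OASL. DESeq2 called 4 genes (0.0268%) and no member. With the experiment as a block, which lowers the spread, edgeR called 0 genes (0%), 690 were under 0.05 unadjusted (4.63%), and 5 of these were members: IFIT2, OASL, MX2, HERC5 and OAS2, all higher. DESeq2 with the block called 31 genes (0.208%) and no member. The targeted gene ZRSR2 was itself not called by edgeR, with genotype alone or with the block (edgeR adjusted p = 0.275 with the block). DESeq2 with the block did call it (adjusted p = 5.38e-04). The lack of called members is thus weak evidence of no change in them. Log2 fold changes of the members ran from −0.14 (IRF7) to 0.50 (IFIT2), and 34 of the 41 lay within 0.25 of 0. Their standard errors were 0.073 to 0.66 with genotype alone and 0.060 to 0.23 with the block.

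Positive values were common among them. The fold change was above 0 for 34 of 41 members, or 82.9%, against 48.7% of all genes, and its median was 0.082 against −0.0033. With the block 36 of 41 were positive and the median was 0.087. The median with genotype alone moved with single libraries. It was 0.046, 0.034 and 0.042 without knockout replicate 1, control replicate 3 or control replicate 4, and 0.13, 0.15 and 0.13 without control replicate 1, control replicate 2 or knockout replicate 3. No member was called in any of these fits, and members measured in the same libraries are not independent.

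IFIT2, an IFIT protein that promotes cell death, was at 14.9, 17.5, 14.1 and 14.6 CPM in the knockouts, in replicate order. In the controls it was at 9.0, 8.39, 12.3 and 13.4 CPM. All knockout libraries were above all control libraries, by a wide margin in experiment 1 and a narrow one in experiment 2. With genotype alone, the log2 fold change was 0.50 ± 0.18 (edgeR unadjusted p = 0.0202, adjusted p = 1.00). OASL, an OAS-like protein without synthase activity that boosts RIG-I, was at 6.15, 6.93, 5.57 and 5.69 CPM in the knockouts and at 4.76, 4.67, 4.63 and 3.19 CPM in the controls. It too was without overlap, at 0.50 ± 0.18 with genotype alone (unadjusted p = 0.0217, adjusted p = 1.00). With the experiment as a block the smallest adjusted p of any member was 0.614 by edgeR and 0.147 by DESeq2, so none was called. Groups that do not overlap with knockout higher were found for these 2 members, or 4.88%, and for 0.302% of all genes, and with knockout lower for no member and 0.376% of all genes. OAS3, the next by p, was at 0.15 ± 0.11, with overlap. Exons of IFIT2 overlap those of LIPA on the opposite strand and of AL353751.1 on the same strand, so its counts may not be wholly its own.

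**Figure D4:**
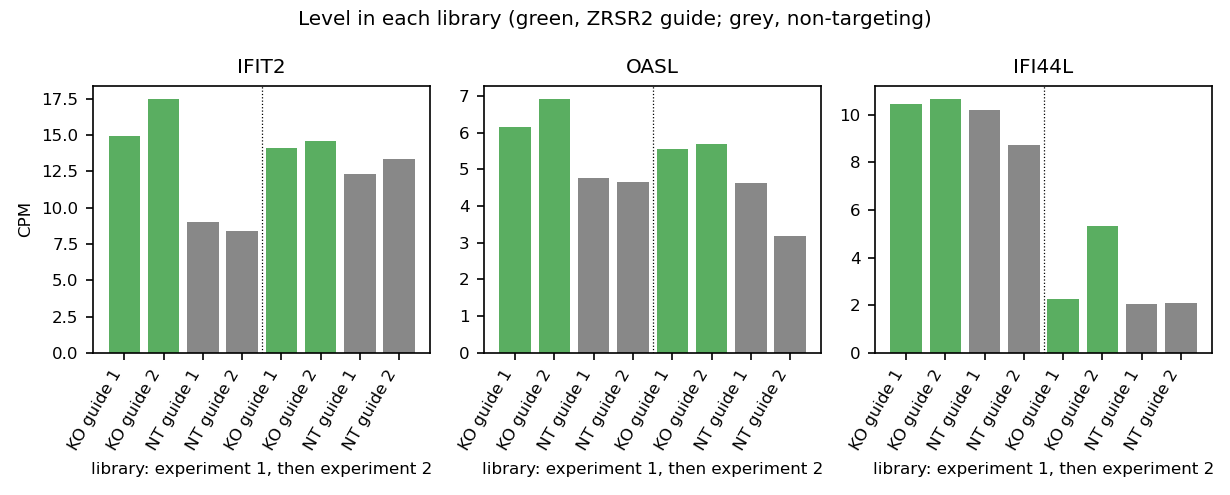
CPM of IFIT2, OASL and IFI44L, a part of the members named for the knockout comparisons, in each library, by experiment and genotype. IFIT2 and OASL are higher in all 4 knockout libraries than in any control library, and IFI44L has 1 high knockout library in experiment 2.

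Within experiment 1 no gene was called by edgeR (0% of all genes), 305 were under 0.05 unadjusted (2.05%), and IFIT2 and OASL were the members among them. IFIT2 was at 0.90 ± 0.14 (unadjusted p = 5.98e-05, adjusted p = 0.891). DESeq2 called 5 genes (0.0336%), IFIT2 among them, with a log2 fold change of 0.90 (adjusted p = 0.00286). OASL and MX2 followed at 0.47 ± 0.20 and 0.47 ± 0.23 and were not significant by either tool.

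Within experiment 2 no gene was called by edgeR (0% of all genes), and 645 were under 0.05 unadjusted (4.33%). The 7 members among them, IFIT5, OAS2, OAS3, OASL, CMPK2, IFI44L and PARP14, were all higher. DESeq2 called 13 genes (0.0873%) and no member. IFIT5, OAS3 and IFI44L were at 0.51 ± 0.17, 0.31 ± 0.11 and 0.87 ± 0.32. The value for IFI44L rests on knockout replicate 4 and was 0.13 without it and 1.36 without knockout replicate 3. IFIT2 was at 0.16 ± 0.14 there. The difference of its effects between experiments was −0.74 ± 0.20 (unadjusted p = 0.00335, adjusted p = 1.00), and it was the only member of the 41 under 0.05 unadjusted in that test. The test called no gene by edgeR (0% of all genes) and no gene by DESeq2 (0%), and 248 genes (1.66%) were under 0.05 unadjusted.

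The sign of the knockout effect was the same in both experiments for 32 of 41 members, or 78.0%, against 54.6% of all genes. In 27 both were positive and in 5 both negative. Positive values were 30 of 41 in experiment 1 and 33 of 41 in experiment 2, against 50.6% of all genes in each. Such a shift alone makes shared signs more common, so the share is not separate evidence beside it. The 2 effects come from different libraries. The libraries were not alike in this respect: 17 members were highest in knockout replicate 1 among the 4 libraries of experiment 1, and 20 were highest in knockout replicate 4 in experiment 2. Over all genes these libraries were highest for 23.6% and 21.7%. Control replicate 4 was lowest for 19 members, or 46.3%, and for 32.2% of all genes.

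**Figure D5:**
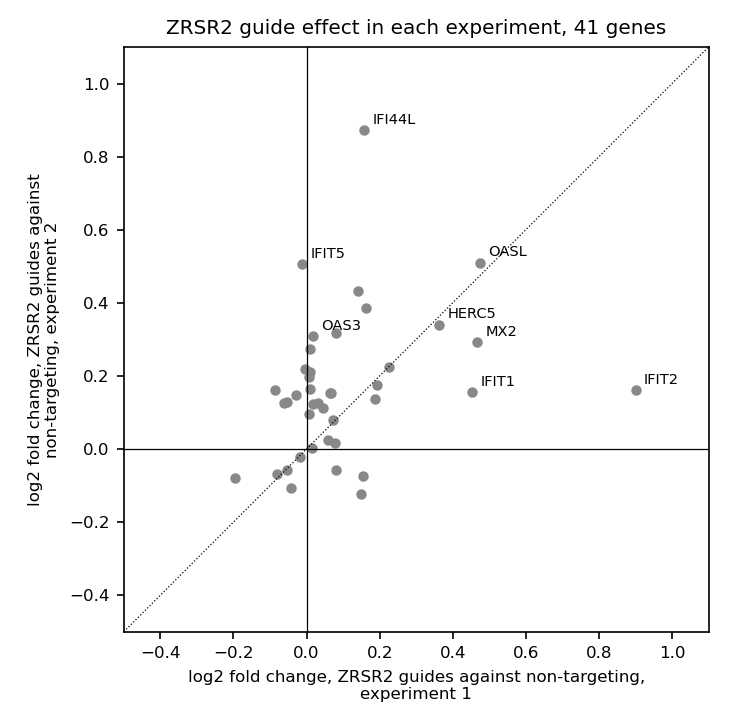
Log2 fold change of each member, knockout against non-targeting, in experiment 1 and in experiment 2. In 27 of the 41 members both values are above 0, and IFIT2 (0.90 in experiment 1) and IFI44L (0.87 in experiment 2) lie farthest from 0.

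The guides against ZRSR2 were each compared with the same 4 control libraries, so that their effects share those controls. With guide 1 no gene was called by edgeR (0% of all genes), 33 genes (0.222%) but no member were under 0.05 unadjusted, and DESeq2 called 1 gene (0.00671%), not a member. With guide 2 no gene was called (0% of all genes), 98 genes (0.658%) were under 0.05 unadjusted, IFIT2 and OASL among them, and DESeq2 called 3 genes (0.0201%), none a member. IFIT2 was at 0.43 ± 0.23 with guide 1 and at 0.57 ± 0.22 with guide 2, and OASL at 0.44 ± 0.23 and 0.55 ± 0.23. IFIT5 was at 0.38 ± 0.20 and 0.06 ± 0.20, and IFIT1 at 0.10 ± 0.34 and 0.42 ± 0.33. With the block edgeR called 0 genes (0%) for guide 1 and 3 (0.0201%) for guide 2, with no member in either. The unadjusted members were then 5, against 2.79% of all genes, and 6, against 4.89%, and IFIT2 and OASL were in both.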

How the data were processed

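The authors deposited 1 table of expected counts per gene symbol, with 1 column for each of the 8 libraries. Per the submitters' processing notes, cutadapt 1.11, RSEM 1.2.30 and the build hg19 were used. Aligner, annotation and strandedness are not given in the sources used here. Per the labels' protocols, a Kapa mRNA kit was used on 200 ng of total RNA. The values were whole, and rounding changed 0 of them. Columns were matched to samples by the library number in the titles.

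Genes were filtered with filterByExpr on genotype, which left 14898 of 25435, and scaled with TMM. Tests were quasi-likelihood F tests in edgeR, and p-values adjusted by Benjamini-Hochberg across the whole tested table were called under 0.05. Knockout was fitted on genotype alone, guides in 1 fit with 3 levels, and all contrasts that involve the experiment in 1 fit with 4 cells of genotype by experiment. Standard errors were derived from the F statistic. The code was tested on simulated data. Software was R 4.3.3, edgeR 4.0.16, limma 3.58.1, DESeq2 1.42.0 and Python 3.11.15. DESeq2, its size factors, 2 other count filters, leaving out each library and a block on the experiment were alternatives.

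The experiment number ties control and knockout libraries to 1 collection. Deviations from the genotype means correlated at 0.678 to 0.846 over the 8 knockout and control pairs within an experiment, and at −0.816 to −0.709 over the 8 pairs from different ones, so the block is given beside a result it changes. No 2 libraries agreed within sampling noise (smallest chi-square per degree of freedom 3.05).

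Members and lists were chosen with earlier results of these data known. Values per library were given for up to 8 members per direction past the threshold between experiments, by size of change and with a mean of at least 1 CPM. For knockout and guide comparisons the 3 members of smallest unadjusted p were named and called not significant, and from the pathway list up to 5 genes per direction with IFNAR1 and IFNAR2. A gene of that rule is not reported here. Further members were named to account for each role group. IFNGR2, outside the rule, was named as the receptor chain that was higher. Gene positions, overlaps and shared 50-base stretches came from GENCODE 29 on GRCh38 and promoters from RefSeq. The third ZRSR2 guide that the design text names is not analysed here.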

Additional observations from a re-analysis of the deposited data

Results flagged for a closer look

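In each experiment the 4 libraries of ZRSR2 and of every member were checked for 1 library far from the other 3, by Dixon's ratio of the gap to the group's range. Of 84 such groups 3 were marked, and chance marks about 1 in 20, or 4.2 here. IRF7 was at 28.8 CPM in knockout replicate 2, against 39.6 to 41.6 CPM elsewhere in experiment 1. IFI27 was at 147 CPM in knockout replicate 4 and at 101 to 108 CPM in the others of experiment 2. IFI44L was at 5.34 CPM in knockout replicate 4 and at 2.07 to 2.28 CPM in the others of experiment 2. Knockout replicate 4 thus held 2 of the 3.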

How the results depend on the processing

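Of 684 values recomputed for 55 results, 663 were labelled the same. For a single gene this means the same side of the threshold with the same sign. Counts of called members were held to a looser rule that allowed a limited change in size, so the 663 include counts that shifted. The 26 members called between experiments became 20 to 29 when 1 library was left out; 20 of them (14 lower, 6 higher) were called with the same sign under all 12 alternatives, while IFIT1, OAS1, MX1, IRF7, IFITM2 and EPSTI1 were not. Within the controls the count was 15 to 26 when 1 library was left out (lowest without control replicate 2), against 23, and within the knockouts 11 to 19, against 19 (11 without knockout replicate 3 and 12 without knockout replicate 1). For knockout within experiment 1 the count of 0 became 1 without a count filter and 1 with DESeq2, IFIT2 both times, at 0.91 and 0.90. Within experiment 2 it became 1 without a count filter (IFI44L, 0.87) and was 0 to 1 when 1 library was left out, with 1 without control replicate 3. The cause was not tested. IFNAR2 between experiments was −0.082 to 0.033 when 1 library was left out, turning positive at 0.033 without knockout replicate 1 and 0.0042 without control replicate 3. The drop of ZRSR2 was −14.7 CPM, with an exact permutation p of 0.0556 under the replicate block. It was −16.2 to −12.6 when 1 library was left out. The replicate block changed no count of called members, which stayed at 0 for knockout and for both guides. With 2 libraries per genotype in an experiment, leaving one out assumes that the lone library varies like the others. Other scalings moved the median of all genes by at most 0.023 on the log2 scale.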
